A study of Homo sapiens with 2 samples.

Results

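Enzymes and adaptors that attach ubiquitin to proteins or take it off again were described here by the ATF1 peaks assigned to their genes in HCT116 cells, a human colon carcinoma line. They were chosen by gene name alone: the UBE2 genes other than UBE2A and UBE2B, the numbered USP genes, the FBXO, FBXL and FBXW genes, and the numbered OTUD genes. Names of antisense RNAs and pseudogenes were left out. This gave 116 genes among the 15064 gene names of the peak table, each with 1 peak. The series has 1 chromatin immunoprecipitation (ChIP) library, from formaldehyde-fixed HCT116 cells (colon adenocarcinoma) with an antibody labelled 3xFlag-ATF1, and 1 input DNA library from HCT116 cells without antibody. Values come from the ChIP library's peaks alone, with no table of the input, and the total number of reads is unknown. The antibody's label points to Flag-tagged ATF1, but the labels do not say how a tagged protein was brought into the cells or at what level, so binding by native ATF1 was not separately measured. There is no replicate and no second condition, so all values describe this library and no test between conditions was possible.

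Ubiquitin is a small protein that is joined to other proteins, most often to mark them for the proteasome or to change what they bind. An E1 enzyme activates it, an E2 conjugating enzyme carries it, and an E3 ligase directs it to a substrate. The UBE2 genes encode E2 enzymes, and the F-box genes (FBXO, FBXL, FBXW) encode substrate receptors of the SCF cullin-RING ligases. USP and OTUD genes encode deubiquitinases, which cut ubiquitin off. The name rule also took genes that do something else or something more. UBE2F serves NEDD8, UBE2L6 serves ISG15, and UBE2V2 lacks the catalytic cysteine and works as a partner of UBE2N. USP39 is a splicing factor without protease activity, FBXO18 (current symbol FBH1) is also a DNA helicase, and UBE2F-SCLY is a readthrough transcript. ATF1 is a basic leucine zipper factor of the CREB family, which binds the cAMP response element (CRE), TGACGTCA, and its half-site TGACG. Many such sites lie close to transcription starts.

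The peaks of these genes were of medium strength with a small group of strong ones. Fold enrichment, the authors' ratio of ChIP signal to a background that is not specified, had a median of 7.68 (quartiles 5.84 and 11.0, range 3.16 to 33.67), beside 6.97 (quartiles 5.20 and 9.76) over all listed peaks. Of the 116 genes, 38 had a peak of at least 10-fold (32.8%, exact binomial interval 24.3 to 42.1%), where the background over all listed peaks was 23.9%. At least 20-fold was reached by 9 genes (7.76%, interval 3.61 to 14.2%), against a background of 5.08%. The interval at 20-fold includes the background share, and at 10-fold the lower bound lies just above the background share. The genes nearest the 10-fold threshold were FBXW4 and FBXO38 (each 10.04-fold) above it and USP2 (9.89-fold) below it. The peaks held a median of 243 tags (sequenced fragments counted in the peak; quartiles 104.5 and 404.5, range 19 to 887), beside 162 over all listed peaks. Intervals cover counting error only, and they treat genes as independent, although neighbouring genes are not.

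The 9 strongest peaks were at OTUD6B, USP9X, USP8, USP11, UBE2V2, USP27X, FBXO34, UBE2T and FBXO4. OTUD6B, an OTU-family deubiquitinase, led with 33.67-fold enrichment and 241 tags in an upstream peak (hg38 chromosome 8, 91069455 to 91070893), the summit lying 150 bp from an outer boundary of the RefSeq gene. USP9X, a large X-linked deubiquitinase that stabilises MCL1 among other substrates, had 33.00-fold and 604 tags (chromosome X, 41084140 to 41086943). USP8, which acts on receptors at endosomes, had 31.96-fold and 274 tags (chromosome 15, 50423527 to 50424890). These 3 peaks had higher fold enrichment than 98.7 to 98.9% of all listed peaks, and were below the strongest listed peak of 121.03-fold. Their tags were less extreme, above 64.8%, 95.3% and 69.9% of listed peaks.

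**Figure D1:**
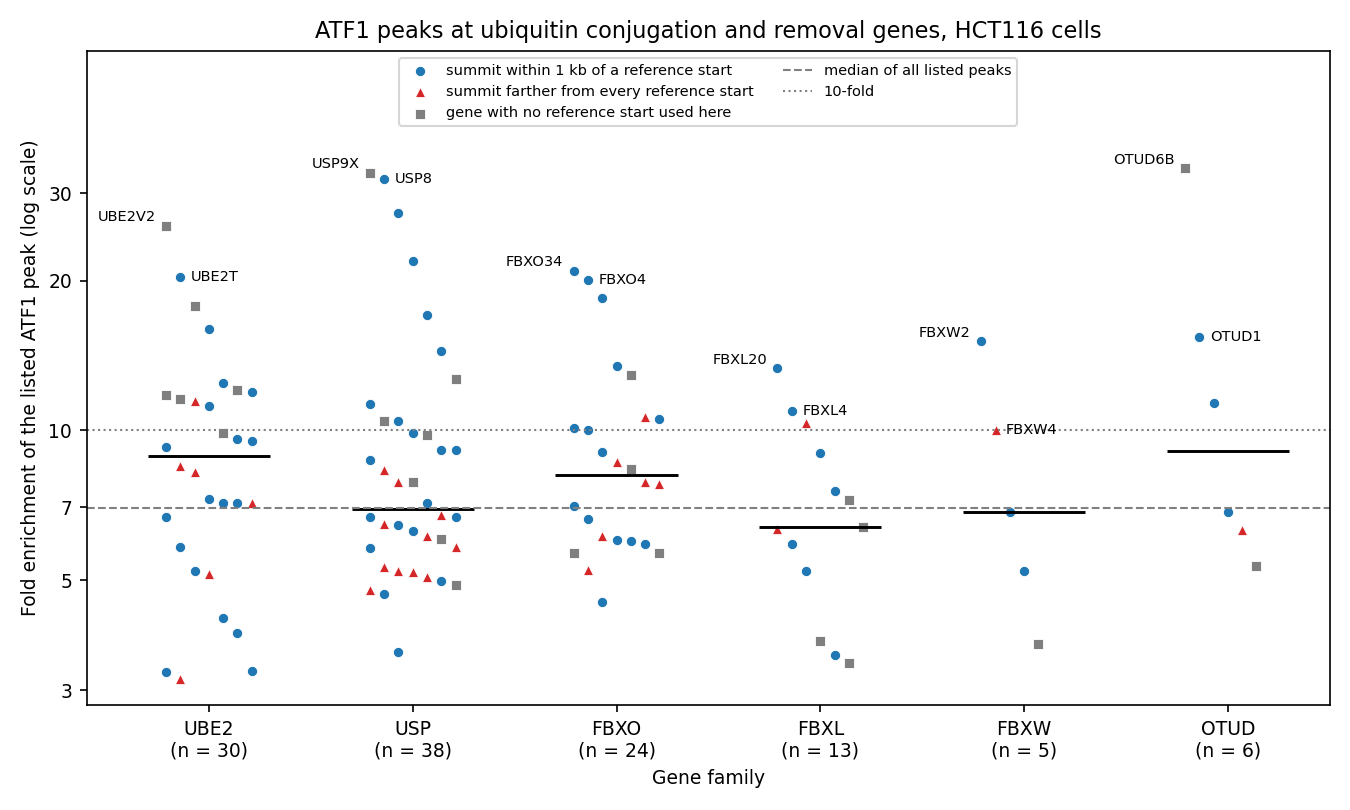
Fold enrichment of the listed ATF1 peak (vertical axis, log scale) for each of the 116 genes, by family (horizontal axis). Each point is 1 gene, colour and shape give the position of the summit, black bars are family medians, the dashed line is the median of all listed peaks (6.97) and the dotted line is 10-fold. The strongest peaks are those of OTUD6B, USP9X and USP8, and the peaks far from a reference start (triangles) reach at most 11.47-fold.

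Most summits lay at a transcription start. A RefSeq start was used for 92 of the 116 genes, and for the 29 of them with several starts the nearest was taken. The summit lay within 1 kb of it at 65 genes (70.7%, interval 60.2 to 79.7%), where the background over listed peaks measured the same way was 63.7%. The interval includes this background. At these 65 genes the summit was a median of 74 bp from the start, beside 88 bp over all listed start peaks, and 40 were within 100 bp. It was upstream at 48, at the start itself at 1 (USP21) and inside the gene at 16, with USP11 the farthest at 585 bp. The upstream share was 73.8%, beside 58.2% over all listed start peaks. No summit lay between 585 and 3410 bp, and the other 27 were 3410 to 122730 bp into the gene or past its end. Over all 116 genes, 83 summits (71.6%, interval 62.4 to 79.5%) were within 1 kb of an outer end of the gene, against a background of 60.3%. In the authors' classes 27 peaks (23.3%, interval 15.9 to 32.0%) were upstream, against a background of 19.9%. Another 55 were exonic (47.4%), 30 intronic (25.9%) and 4 downstream (3.45%). Over all 15064 listed peaks, 6559 were exonic, 5102 intronic and 407 downstream.

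**Figure D2:**
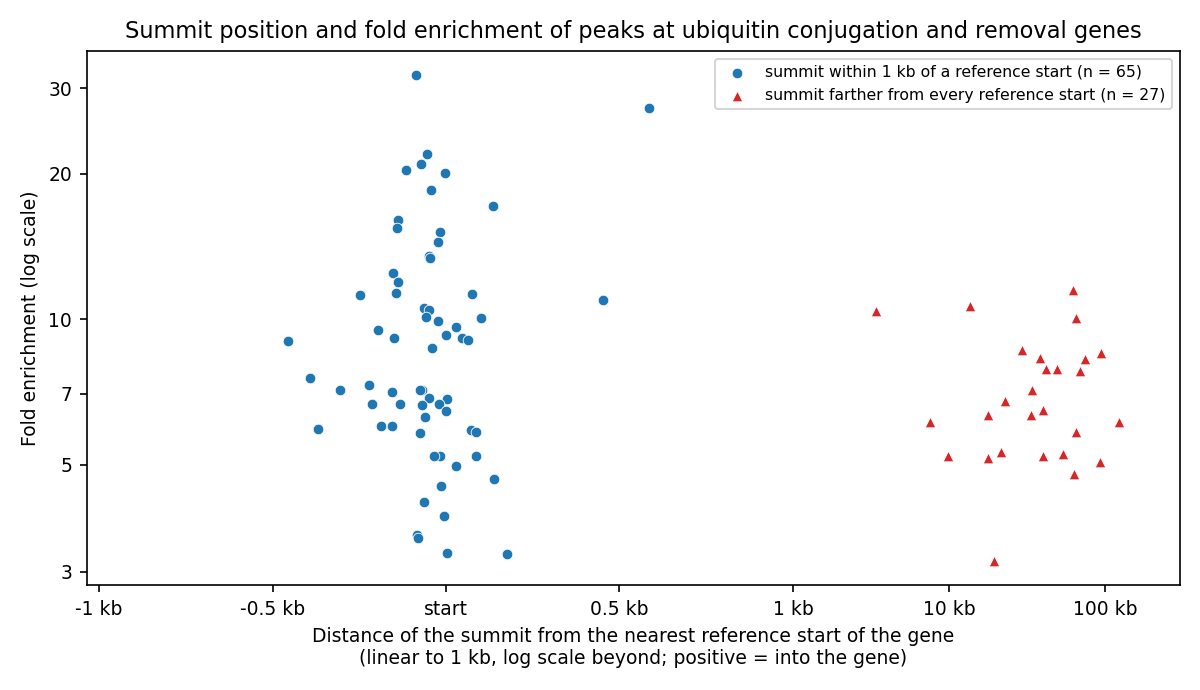
Distance of each summit from the nearest reference start of its gene (horizontal axis, linear to 1 kb and log beyond, positive into the gene) against fold enrichment (vertical axis, log scale) for the 92 genes with a reference start. The summits fall into a dense group within 585 bp of the start, which holds all peaks above 11.47-fold, and a scattered group from 3410 bp onwards.

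The sequences just upstream of 7 starts are shown, all with peaks of at least 10-fold, so that the half-sites and their absence can be read in place. FBXO34, UBE2S and FBXL20 are the 3 genes, among the 92 with a reference start, whose window held a full CRE. USP8 is the strongest gene with a reference start, and OTUD1 and UBE2T carry a half-site that continues as TGACGTCG and TGACGTCT. USP27X is a strong peak without a half-site. Each run is the 250 bases before the start, 5′ to 3′ on the gene's strand, from RefSeq sequence of GRCh38.p14. Capitals mark every TGACG and its reverse complement CGTCA, and a run of 8 capitals is the full CRE.
FBXO34: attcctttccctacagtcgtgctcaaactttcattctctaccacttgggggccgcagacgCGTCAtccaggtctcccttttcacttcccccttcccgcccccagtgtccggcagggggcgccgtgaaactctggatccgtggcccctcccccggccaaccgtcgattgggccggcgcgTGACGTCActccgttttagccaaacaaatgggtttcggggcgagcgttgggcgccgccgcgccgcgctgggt
UBE2S: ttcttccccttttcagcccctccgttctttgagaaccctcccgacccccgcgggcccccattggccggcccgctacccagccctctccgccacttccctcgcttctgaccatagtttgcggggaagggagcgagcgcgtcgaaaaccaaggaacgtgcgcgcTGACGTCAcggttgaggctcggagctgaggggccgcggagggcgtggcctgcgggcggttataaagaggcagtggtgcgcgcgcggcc
FBXL20: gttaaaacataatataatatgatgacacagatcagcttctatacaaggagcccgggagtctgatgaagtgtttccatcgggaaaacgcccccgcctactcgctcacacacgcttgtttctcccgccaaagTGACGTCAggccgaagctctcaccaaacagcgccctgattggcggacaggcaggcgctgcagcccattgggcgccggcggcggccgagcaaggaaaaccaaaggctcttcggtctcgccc
USP8: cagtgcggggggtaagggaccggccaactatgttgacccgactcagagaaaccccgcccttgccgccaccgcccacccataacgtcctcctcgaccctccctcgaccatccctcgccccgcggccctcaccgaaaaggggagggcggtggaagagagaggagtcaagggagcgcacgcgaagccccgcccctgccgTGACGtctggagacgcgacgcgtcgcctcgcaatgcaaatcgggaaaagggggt
OTUD1: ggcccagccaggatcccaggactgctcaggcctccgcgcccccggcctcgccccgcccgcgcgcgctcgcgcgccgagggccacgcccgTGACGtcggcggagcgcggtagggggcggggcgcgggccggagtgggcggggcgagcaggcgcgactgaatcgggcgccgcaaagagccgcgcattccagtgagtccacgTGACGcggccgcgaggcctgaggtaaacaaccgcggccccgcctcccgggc
UBE2T: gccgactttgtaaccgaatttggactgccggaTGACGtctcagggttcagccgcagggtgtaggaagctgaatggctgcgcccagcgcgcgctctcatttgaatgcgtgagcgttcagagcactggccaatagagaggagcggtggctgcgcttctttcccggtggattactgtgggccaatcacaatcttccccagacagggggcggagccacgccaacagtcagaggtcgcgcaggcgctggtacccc
USP27X: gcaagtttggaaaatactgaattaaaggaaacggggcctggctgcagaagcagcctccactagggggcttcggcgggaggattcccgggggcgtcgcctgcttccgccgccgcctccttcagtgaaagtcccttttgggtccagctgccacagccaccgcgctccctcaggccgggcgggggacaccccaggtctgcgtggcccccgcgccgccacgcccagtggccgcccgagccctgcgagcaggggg
These stretches are chr14:55271171-55271420 on the plus strand for FBXO34, chr19:55407789-55408038 on the minus strand for UBE2S, chr17:39402557-39402806 on the minus strand for FBXL20 and chr15:50424155-50424404 on the plus strand for USP8. OTUD1 is at chr10:23438825-23439074 (plus), UBE2T at chr1:202341937-202342186 (minus) and USP27X at chrX:49879234-49879483 (plus).

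The distances from the half-sites to the summits differed among these genes. At FBXO34 the summit was 72 bp upstream of the start and the centre of the nearer half-site of the CRE was 2 bp from it. The CRE of UBE2S lay 51 bp from its summit and that of FBXL20 70 bp, measured to the nearer of its overlapping half-sites. USP8 carried TGACGTCT 34 bp from the summit and OTUD1 carried TGACGTCG 19 bp from it. UBE2T also carried TGACGTCT, 102 bp from the summit. USP27X had neither form in its 300 bp window (250 bases before and 50 after the start), although its peak had 21.96-fold enrichment. USP11, at 27.32-fold, also had neither in its window, but its summit lay 585 bp inside the gene, outside that window. A letter match is a description and does not show a bound site, and its absence says only that the letters are not in this window.

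Half-sites were more frequent at the starts with stronger peaks. The window of the nearest start held TGACG or CGTCA at 38 of the 92 genes (41.3%, interval 31.1 to 52.1%), where the background was 32.7% over listed peaks and 24.6% over all 35116 reference windows. Among the 65 genes with the summit at the start, it held one at 1 of 9 with under 5-fold enrichment, 4 of 17 from 5 to 7, 8 of 15 from 7 to 10, 13 of 18 from 10 to 20 and 4 of 6 from 20-fold up. The same shares over all listed start peaks were 21.2%, 25.4%, 36.0%, 52.6% and 72.9%. The interval of each of the 5 shares of these genes includes the share of all listed start peaks. OTUD6B, USP9X and UBE2V2, 3 of the 9 genes of at least 20-fold, had no reference start and were not searched. Split at 10-fold, the counts were 17 of 24 (70.8%, interval 48.9 to 87.4%) above and 13 of 41 (31.7%, interval 18.1 to 48.1%) below, beside 57.5% and 27.9% over all listed start peaks. No test was made between these groups. In the 17 windows above 10-fold the nearest half-site lay a median of 28 bp from the summit, and within 100 bp of it in 14 (82.4%). Over all listed start peaks of that strength the median was 37 bp, with 76.1% within 100 bp.

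**Figure D3:**
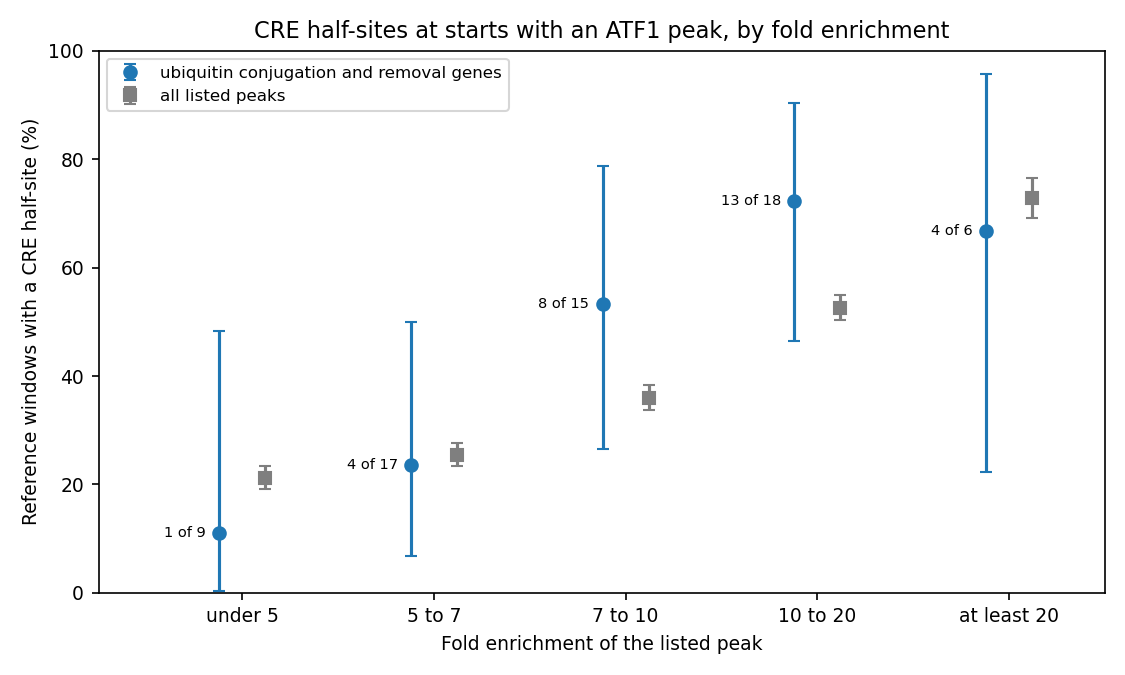
Share of reference windows with a CRE half-site (vertical axis, percent) at starts within 1 kb of a summit, by fold enrichment of the peak (horizontal axis). Circles are the ubiquitin conjugation and removal genes, with their counts, squares are all listed start peaks, and bars are exact 95% binomial intervals. Both series are lowest at the weak end (1 of 9 and 21.2%) and high at the strong end (4 of 6 and 72.9%).

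The full CRE was about as rare at these genes, in 3 of 92 windows (3.26%, interval 0.678 to 9.23%), as over all listed peaks (3.05%). It was found at 3 of the 24 start peaks of at least 10-fold (12.5%, interval 2.66 to 32.4%) and at 0 of the 41 below. That 0 allows a share of up to 7.32% by a limit of 3 counts, and the upper bound of the exact interval is 8.60%. Over all listed start peaks it was found at 9.53% and 0.878%, with a background of 3.05% over the windows of listed peaks and 1.85% over all reference windows. Other promoter motifs were counted in the same windows on both strands. The NF-Y box CCAAT was at 11 of the 24 stronger and 11 of the 41 weaker start peaks (45.8% and 26.8%), beside 44.1% and 32.5% over all listed start peaks. The ETS core CCGGAA was at 11 of 24 and 13 of 41 (45.8% and 31.7%), beside 37.3% and 27.3%. The GC box GGGCGG was about as frequent in both groups, at 20 of 24 and 35 of 41 (83.3% and 85.4%), beside 73.6% and 75.4%. In all reference windows CCAAT had a share of 34.6%, CCGGAA of 17.2% and GGGCGG of 45%. CpG dinucleotides numbered a median of 31 per window in the stronger and 32 in the weaker group.

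Among the E2 enzymes, 29 of the 33 reference genes had a row in the table (87.9%, interval 71.8 to 96.6%). The background over all protein-coding genes was 60.9%. With the UBE2F-SCLY readthrough, 30 peaks were listed. Their median was 8.88-fold and 333 tags, and 11 of 30 (36.7%, interval 19.9 to 56.1%) reached 10-fold. The interval includes the 23.9% of all listed peaks. UBE2V2, the non-catalytic partner of UBE2N, had the strongest peak, intronic, at 25.80-fold with 426 tags (chromosome 8, 48007669 to 48009293). UBE2N itself had 11.21-fold and 526 tags. UBE2T, the E2 of the Fanconi anaemia pathway, had 20.35-fold but only 140 tags (Poisson interval 118 to 165; chromosome 1, 202341207 to 202342732). UBE2H, which works with the CTLH ligase, had 17.75-fold and 837 tags, the second-highest number of tags among these genes, and the summit lay 2 bp from the gene's outer boundary.

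The E2 enzymes of the anaphase-promoting complex both had a peak at the gene end. UBE2S, which lengthens ubiquitin chains, had 16.01-fold and 679 tags (chromosome 19, 55406883 to 55408807). UBE2C, which starts the chains, had 9.88-fold and 108 tags, 74 bp from the gene's outer boundary. Among E2 enzymes for ubiquitin-like proteins, UBE2F had 12.43-fold and UBE2L6 7.15-fold. The closely related UBE2D enzymes, which serve many ligases, were spread out, with UBE2D2 at 11.93-fold, UBE2D3 at 9.26-fold and UBE2D1 at 4.19-fold. UBE2D2's summit was 34961 bp from the nearer outer end of its reference gene but 138 bp upstream of its reference start.

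The UBE2 genes also held the 3 lowest fold enrichments. UBE2J2, an E2 of the endoplasmic reticulum membrane, had 3.16-fold in a long peak of 4884 bp with 333 tags (chromosome 1, 1253281 to 1258164), 19288 bp from the nearest start and 654 bp from the far end of the gene. UBE2Q2 had 3.27-fold with 333 tags and UBE2E2 3.29-fold with 232 tags, and both summits lay at the start, 176 and 2 bp inside the gene. The lowest fold enrichments therefore did not belong to the peaks with the fewest tags. UBE2J1, which shares its place in the membrane with UBE2J2, had 7.29-fold in an upstream peak of 444 tags.

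Numbered USP genes had a row for 38 of the 76 reference genes that fit the name rule, USP6NL and USP39 included (50%). The background was 60.9% over all protein-coding genes. The 25 genes of the USP17L subfamily accounted for 25 of the 38 without one. None of those 25 was listed. The 0 of 25 allows a share of up to 12% by a limit of 3 counts, and the upper bound of the exact interval is 13.7%. The copies of this family are near-identical, and the sources used here do not say what was done with reads that fit several of them, so this count is uncertain. The USP peaks had a median of 6.96-fold and 165 tags, and 10 of 38 (26.3%, interval 13.4 to 43.1%) reached 10-fold. This share was near the 23.9% of all listed peaks. After USP9X and USP8, USP11 had 27.32-fold and 233 tags in an intronic peak (chromosome X, 47232615 to 47234179). USP27X had 21.96-fold with 154 tags (chromosome X, 49878184 to 49880307), and USP16, which removes ubiquitin from histone H2A, had 17.10-fold with 130 tags.

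Other well-known USP genes were spread over the range. USP14, the deubiquitinase of the proteasome, had 14.44-fold and 615 tags, and USP1, which acts on PCNA and FANCD2, had 8.73-fold and 482 tags, both at the start. USP7, which acts on MDM2 and p53, had a small intronic peak of 22 tags (interval 13.8 to 33.3) at 7.89-fold, 41727 bp from the nearest start. USP22, the deubiquitinase of the SAGA complex, had a similar peak of 32 tags at 8.31-fold. USP10 had the lowest fold enrichment of the USP genes, 3.58, with 250 tags in an upstream peak. The USP genes just named, other than USP9X, USP8, USP11, USP27X and USP16, were chosen after their values were seen, as were UBE2N, UBE2C, UBE2L6, UBE2D1, UBE2D3 and UBE2J1.

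F-box genes had 42 listed peaks with a median of 7.40-fold and 315 tags, and 14 of 42 (33.3%, interval 19.6 to 49.5%) reached 10-fold. That interval includes the 23.9% of all listed peaks. The FBXO genes had 24 of 37 reference genes listed (64.9%), the FBXL genes 13 of 17 (76.5%) and the FBXW genes 5 of 10 (50%). The background over all protein-coding genes was 60.9%. FBXO34 combined high fold enrichment (20.96) with the most tags of all 116 genes, 887 (interval 830 to 947; chromosome 14, 55270707 to 55272785). FBXO4 had 20.07-fold and 393 tags with its summit 4 bp upstream of the start. FBXO45 had 18.46-fold and 582 tags, in a peak 43 bp upstream of its own start and 63 bp from the start of WDR53 on the other strand. FBXO11, a receptor for BCL6, had 13.49-fold and 378 tags, and FBXO25 12.93-fold and 109 tags. FBXO24 had 778 tags at 10.09-fold, and 140 bp from its summit was the start of LRCH4.

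The leucine-rich FBXL genes had the highest median peak length of the 6 families, 2664 bp, against 1789.5 bp over the 116 genes and 1551 bp over all listed peaks. FBXL15 had the longest peak, 5193 bp with 720 tags (chromosome 10, 102418312 to 102423504), at 6.38-fold, and FBXL16 had 4770 bp at 3.77-fold. FBXL20 led the FBXL genes at 13.36-fold with 616 tags, followed by FBXL4 at 10.93-fold, FBXL22 at 10.37-fold, FBXL12 at 8.99-fold and FBXL17 at 7.55-fold. Among the WD-repeat FBXW genes, FBXW2 had 15.11-fold and 412 tags, and FBXW11, which encodes a beta-TrCP protein of the WNT and NF-kappa-B pathways, had 6.86-fold and 263 tags. FBXW4 had 10.04-fold but 46 tags (interval 33.7 to 61.4), far inside the gene, FBXW8 had 5.22-fold and FBXW9 3.72-fold.

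OTUD deubiquitinases had 6 of 8 reference genes listed (75%, interval 34.9 to 96.8%), against a background of 60.9% over all protein-coding genes. Of the 6, 3 reached 10-fold (50%, interval 11.8 to 88.2%), where the background over all listed peaks was 23.9%. Besides OTUD6B, OTUD1 had 15.42-fold and 673 tags in an upstream peak. Its window was the most CpG-rich among the 92 genes with a reference start, with 53 CpG dinucleotides. OTUD4 had 11.34-fold and 355 tags, 145 bp upstream of its start, and OTUD3 6.84-fold and 202 tags, 2 bp inside. OTUD5, on chromosome X, had 6.32-fold and 19 tags (interval 11.4 to 29.7), the fewest of all 116 genes. Across families the medians ran from 6.38-fold (FBXL) to 9.09-fold (OTUD), a range that lies within the quartiles of all 116 genes (5.84 and 11.0).

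Peaks away from the starts were small. The 27 of them had a median of 51 tags, 6.48-fold enrichment and 1102 bp, and 15 had under 60 tags. The 65 peaks at starts had a median of 315 tags, 8.73-fold and 1835 bp, and 1 had under 60 tags, that of UBE2U with 45. The same contrast held over all listed peaks, with medians of 60 tags away from starts and 240 at starts. At least 10-fold was reached by 4 of 27 peaks away from starts (14.8%, interval 4.19 to 33.7%) and by 24 of 65 at starts (36.9%, interval 25.3 to 49.8%). Over all listed peaks these shares were 10.5% away from starts and 33.8% at starts. USP32 had the summit farthest from both outer ends of its gene, 94954 bp from the nearer, in an intronic peak of 79 tags at 5.84-fold. Over the 116 genes, Spearman's rho was 0.76 between tags and peak length, 0.32 between tags and fold enrichment and -0.03 between peak length and fold enrichment. These correlations are across genes within 1 library, in which tags, length and fold enrichment come from the same reads.

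**Figure D4:**
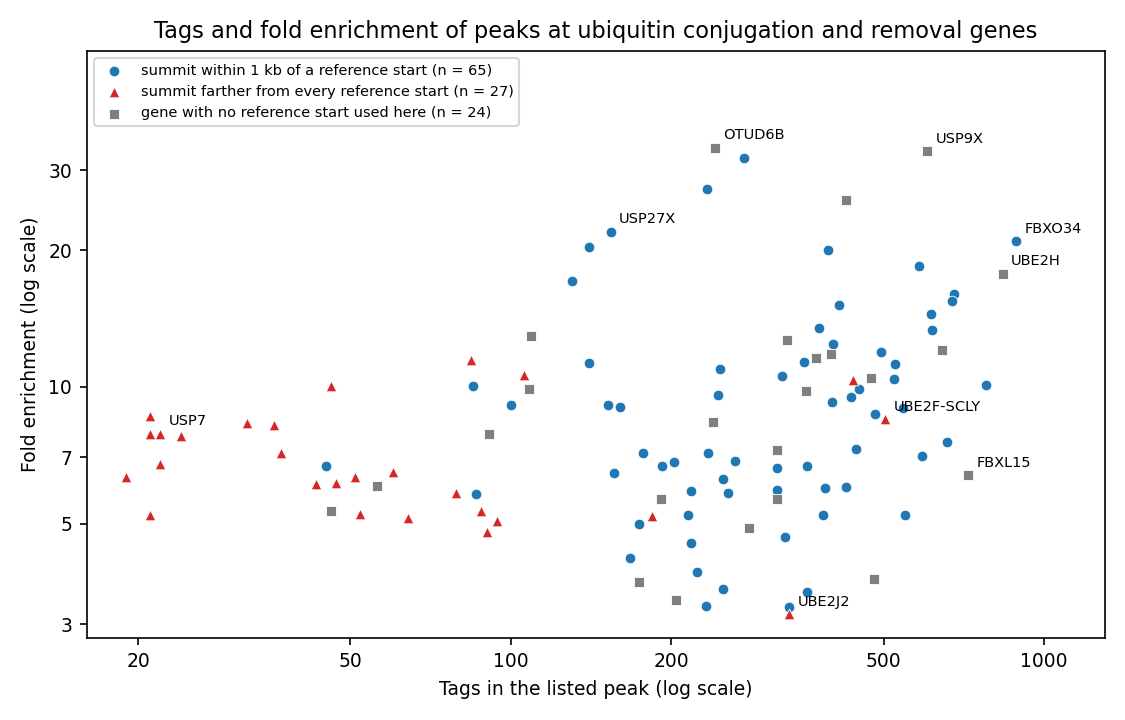
Tags in the listed peak (horizontal axis, log scale) against fold enrichment (vertical axis, log scale) for the 116 genes, with colour and shape giving the position of the summit. Most peaks away from starts (triangles, median 51 tags) lie to the left of the peaks at starts (circles, median 315 tags) at fold enrichments of 3.16 to 11.47.

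The peak listed under a gene's name was not always the peak at its start. Each gene name has 1 peak and each peak 1 gene name. No peak of the 116 genes overlapped another listed peak. At 7 of the 27 genes with a peak away from the start, another listed peak lay within 1 kb of the start under another name. The same was not counted over all listed peaks away from starts, so this count has no background beside it. USP20 is listed with 5.20-fold and 184 tags 39990 bp inside the gene, while a peak of 21.96-fold and 621 tags listed for C9orf78 had its summit 114 bp from the USP20 start. UBE2O, an E2 that also acts as a ligase, is listed with 11.47-fold and 84 tags, and the peak 94 bp from its start, 14.08-fold with 422 tags, is listed for AANAT. The others were FBXL19, USP13, USP35, FBXO31 and UBE2F-SCLY, with peaks of 7.77-fold to 12.43-fold at their starts. The peak at the UBE2F-SCLY start is the 12.43-fold peak of UBE2F, itself among the 116 genes. Conversely, the summits listed for UBE2F-SCLY, FBXL22 and USP4 lay 130 bp from the start of SCLY, 30 bp from USP3-AS1 and 3 bp from C3orf62. The remaining 18 peaks fell in neither group by the reference starts used here. A start absent from the reference windows would have been missed. These 18 peaks had a median of 36.5 tags, 12 of them under 60, and 3.16-fold to 10.63-fold enrichment.

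Some family genes without a row of their own also had a listed peak at an end. Of 181 reference genes that fit the name rule, 115 had a row (63.5%, interval 56.1 to 70.5%), where the background over all 19974 protein-coding genes was 60.9%. Of the 66 without one, 19 had a listed summit within 1 kb of an end, and at 9 of these that peak reached 10-fold. The same was not counted over all unlisted protein-coding genes, so these counts have no background beside them. A peak of 26.06-fold and 411 tags listed for CNOT9 lay 72 bp from an end of USP37, and 1 of 24.24-fold and 627 tags listed for CDCA3 lay 140 bp from USP5. UBE2M, the main NEDD8 conjugating enzyme, had a peak of 13.72-fold listed for CHMP2A 596 bp from an end. These examples were chosen after their values were seen. Of the 65 genes with a peak at the start, 5 (7.69%, interval 2.54 to 17.0%) had a protein-coding start on the opposite strand within 1 kb of the summit, beside 13.2% of all listed start peaks. They were FBXO45, FBXW2, FBXO24, FBXO18 and FBXO2, all F-box genes, and for them the peak cannot be given to either gene by position alone.

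The 5 genes on chromosome X had 3 of the 9 peaks above 20-fold and 2 peaks below the median of all listed peaks. Over all listed peaks, at least 20-fold was reached by 12.8% on chromosome X and by 4.88% on the autosomes. USP9X, USP11 and USP27X had 33.00-fold, 27.32-fold and 21.96-fold, whereas OTUD5 and USP51 had 6.32-fold and 6.05-fold. Over all listed peaks the median was 8.32-fold on chromosome X and 6.95-fold on the autosomes, while median tags were 96.5 and 167. USP9X had 604 tags, and the other 4 had 19 to 233.

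Other parts of the ubiquitin pathway had peaks of similar strength. Of 90 genes on a list of E1 enzymes, ubiquitin-like proteins, E2-like enzymes, cullin-RING ligase core, HECT and RBR ligases and further deubiquitinases, 77 had a row, with a median of 8.63-fold and 225 tags. The background share of genes with a row was 60.9% over all protein-coding genes. Of the 77, 27 reached 10-fold (35.1%, interval 24.5 to 46.8%), beside the background of 23.9% over all listed peaks. Among the 8 E1 enzymes 5 had a row and 1 reached 10-fold: UBA6, the E1 of UBE2Z, had 17.95-fold and 293 tags, and SAE1, of the SUMO E1, 9.66-fold. All 10 ubiquitin and ubiquitin-like genes had a row and 5 reached 10-fold, led by UBB, a polyubiquitin gene (21.06-fold, 181 tags), and URM1 (16.05-fold, 140 tags). Of the E2-like enzymes 2 of 4 reached 10-fold, UEVLD (12.09-fold) and the ESCRT-I subunit TSG101 (11.73-fold).

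The ligases and the further deubiquitinases showed the same spread. Of the listed cullin-RING genes, which here include cullins, adaptors, RING subunits and F-box proteins with other names such as SKP2 and BTRC, 8 of 21 reached 10-fold. ELOC, listed under its older symbol TCEB1, had 20.07-fold and 178 tags, and RNF7, a RING subunit of cullin ligases, 15.94-fold and 649 tags. Of the HECT and RBR ligases 4 of 16 reached 10-fold, with HUWE1 at 22.11-fold but 87 tags and ARIH1 at 16.08-fold with 674 tags. Among the further deubiquitinases 7 of 21 did, led by UCHL5, a deubiquitinase of the proteasome (25.85-fold, 501 tags), and USPL1, which acts on SUMO (22.11-fold, 550 tags). Over this list the summit was within 1 kb of a reference start at 42 of 58 genes with one, and the window of the nearest start held a half-site at 25 of 58. The backgrounds over listed peaks were 23.9% for at least 10-fold, 63.7% for the summit and 32.7% for the half-site.

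**Figure D5:**
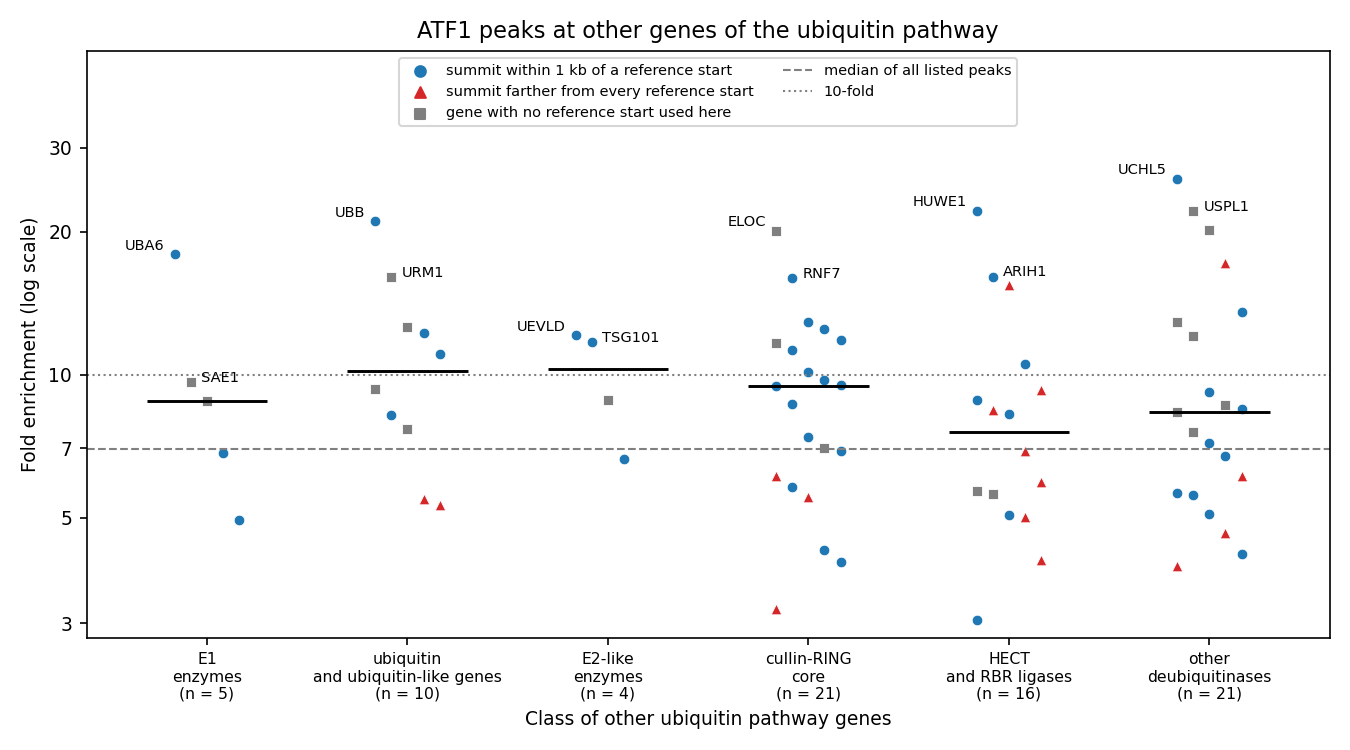
Fold enrichment of the listed ATF1 peak (vertical axis, log scale) for the 77 listed genes in 6 other classes of the ubiquitin pathway (horizontal axis). Each point is 1 gene, black bars are class medians, the dashed line is the median of all listed peaks (6.97) and the dotted line is 10-fold. Class medians lie between 7.59-fold and 10.3-fold, and UCHL5 has the strongest peak at 25.85-fold.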

How the data were processed

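The study measured ATF1 binding in 1 ChIP library of HCT116 cells, with 1 input library. Per the submitters' processing notes, the reads were handled with Bowtie2, CASAVA and bedtools on hg38. The caller of the peaks, the control it used, its threshold and the annotation behind the gene names are not given in the sources. Tags in the deposited list are raw counts, in whole numbers, for each peak. Fold enrichment, as deposited, is a ratio to an unstated background (lowest value 3), and the deposited score (lowest value 50) has no stated basis. All 3 are the authors', and served here for description and ranking inside the list. Another 1 line without a position was left out. The library's total reads are unknown, since the tags in listed peaks are only part of them.

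Gene names were matched to RefSeq GRCh38.p14, the assembly of hg38: of the 15064 names, 13440 by current symbol and 714 by an older one on the same chromosome, and of the 116 genes 115 and 1. Starts came from RefSeq windows of 250 bases before and 50 after each start, 35116 in all, which gave a start for 11070 listed peaks and 92 of the 116 genes. The nearest start of the assigned gene was used for every listed peak alike. Motifs were searched on both strands with overlaps allowed, so a full CRE counts as 2 overlapping half-sites but its window only as 1. Shares carry exact (Clopper-Pearson) 95% binomial intervals and single tag counts exact 95% Poisson intervals, both for counting error only. The matching and motif steps were tested on simulated data.

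The gene members, lists and rules were chosen with earlier results of these data known. Genes named were the 5 highest by fold enrichment in each family, the 3 lowest, the 3 with the most tags, the 3 longest peaks, the 3 farthest from both gene ends and the 2 highest in each pathway class. Those named beyond this rule, including the examples for half-sites, for peaks listed under other names and for chromosome X, were chosen after their values were seen. Alternatives changed the fold threshold, the score, the window, the assignment, the name matching and the motif. Python 3.11.15, numpy 2.4.6, pandas 2.3.3, scipy 1.17.1 and matplotlib 3.10.9 were used.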

Additional observations from a re-analysis of the deposited data

How the results depend on the processing

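The share of genes past a fold threshold moved with the threshold, as it must: 87.1% at 5-fold, 56.9% at 7-fold and 7.76% at 20-fold, against 32.8% at 10-fold, and for the other pathway genes 63.6% at 7-fold and 7.79% at 20-fold, against 35.1%. With a score of at least 100 the median fold enrichment was 9.08 in place of 7.68. The share of summits at a gene end was 81.9% with a 5 kb window, 80.2% when any listed peak counted and 81.6% among peaks of at least 10-fold, in place of 71.6%. Upstream peaks were 34.2% of those of at least 10-fold, in place of 23.3%. Family genes counted as listed were 74.0% when a listed summit at an end sufficed and 73.7% without the USP17L genes, in place of 63.5%. The share of windows with a motif was 3.26% for the full CRE and 64.3% among peaks of at least 10-fold, in place of 41.3%. The other 15 of 29 values stayed within the interval of the value reported. Leaving out USP17L, using starts in place of ends, and half-sites at starts only were chosen after seeing the data. No replicate could be left out, and no paired analysis was possible because there is 1 ChIP library. With its depth unknown, a gene without a listed peak cannot be called unbound.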

Other observations

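Antisense RNAs and a pseudogene with a family name were left out of the 116 genes. FBXL19-AS1 had 9.79-fold and 316 tags in an intronic peak, and its summit was 132 bp from a reference start of FBXL19. USP2-AS1 had 4.34-fold and 131 tags, and the pseudogene FBXW4P1 5.29-fold and 74 tags. Whether reads at the pseudogene belong to it or to its parent gene cannot be told from the table.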
